A study of Homo sapiens with 6 samples.

Results

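Neuroendocrine lineage genes were followed in 22RV1 cells, a human castration-resistant prostate cancer (CRPC) cell line, after treatment with bruceantin (BCT). The 9 genes were taken by their symbols, with no threshold on a measured value: REST, SOX2, ONECUT2, INSM1, CHGA, CHGB, SCG2, SYP and NCAM1. All 9 were present among the 26255 genes measured. In BCT-treated cells REST, SOX2 and SCG2 rose, CHGB and SYP differed by less than the fold threshold, ONECUT2 overlapped between the groups, and CHGA, INSM1 and NCAM1 were too low to pass the filter for the main test.

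The RNA-seq experiment compared 3 samples of cells given 10 nM BCT, a plant quassinoid, with 3 samples given the vehicle DMSO, each for 24 h. All 6 samples were of the same cell line, kept in serum-containing medium, and the labels name no genetic change in either group. The labels do not say whether the 3 samples of a group came from separate cultures, so the p-values measure only the spread between these samples, which may be technical. The study asked how BCT, which it describes as acting on the chaperone HSP90, changes the transcriptome of CRPC cells.

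Values are FPKM as deposited, in which the fragments of a gene are divided by its transcript length and by the mapped reads of the sample. The division by length lets levels be set beside each other between genes, while comparison between samples also rests on the scaling, which was varied. Differences are on the scale of log2(FPKM + 0.1), where a change from a low level appears smaller than it is. They were tested with limma in the 12729 genes whose average reached 1 FPKM, and p-values were adjusted over all of these genes (Benjamini-Hochberg). A gene was called where its log2 fold change passed 0.85 in either direction and its adjusted p was below 0.05. No permutation test was run for single genes, because with 3 against 3 its smallest exact p is 0.1.

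Neuroendocrine cells of the prostate store peptides and granins in dense-core vesicles and release them on stimulation. Some prostate adenocarcinomas under androgen deprivation lose their luminal programme and take up this one, and CHGA, SYP and NCAM1 (CD56) are the markers by which pathologists recognise it. REST is a zinc finger repressor that keeps neuronal and neurosecretory genes silent outside the nervous system, by binding a DNA element called RE1 and bringing in histone deacetylases and the demethylase KDM1A. SOX2, ONECUT2 and INSM1 are transcription factors linked to the neuroendocrine state.

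Since REST acts through the RE1 element, the genome was searched for the core of that element near the starts of the 9 genes. The core was taken as the letters CAGCACC, 2 further bases of any kind, and the letters GGACAG, on either strand and without mismatch, within 1000 bases of the annotated start. CHGA, CHGB and SYP each held a match. They are printed with 3 bases on either side, 5′ to 3′ on the strand that carries the core, and capitals mark the 2 fixed parts. Measured to its centre, the match of CHGA lies 382 bases after the start, at chr14:93389867-93389887 (plus strand), that of CHGB 203 bases after it, at chr20:5892349-5892369 (plus strand), and that of SYP 85 bases after it, at chrX:49056582-49056602 (minus strand), all in GRCh37. None of the annotated transcripts that span these positions, 4 for CHGA, 2 for CHGB and 9 for SYP, has an exon there, so the matches are intronic.
CHGA: tttCAGCACCgcGGACAGcgc
CHGB: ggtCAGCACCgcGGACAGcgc
SYP: ctcCAGCACCgtGGACAGagc
SYT4: cttCAGCACCtcGGACAGaac
GRIN1: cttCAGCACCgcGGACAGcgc
SYN1: cttCAGCACCgcGGACAGtgc

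The last 3 lines belong to a synaptotagmin of secretory vesicles, a glutamate receptor subunit and a synaptic vesicle phosphoprotein, and are shown because their genes are compared with the set below. The match of SYT4 lies at chr18:40857259-40857279 (minus strand), that of GRIN1 at chr9:140033711-140033731 (plus strand) and that of SYN1 at chrX:47479470-47479490 (minus strand). The same core was found at 818 places in GRCh37, and 64 of 18018 protein-coding genes (0.355%) had it within 1000 bases of the start. Of the 9 neuroendocrine lineage genes 3 had it (33.3%). Such a match is a description of letters and was not measured as a binding site.

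Levels set the genes far apart. In DMSO the order was SYP, CHGB, REST, ONECUT2, SCG2, CHGA, SOX2, NCAM1 and INSM1, from the highest mean to the lowest. The samples of CHGB and REST overlapped in range, as did those of NCAM1 and INSM1, and the ranges of all other neighbours were apart. In BCT the order was SYP, REST, CHGB, SOX2, ONECUT2, SCG2, CHGA, NCAM1 and INSM1. SOX2, ONECUT2 and SCG2 overlapped there as neighbours. REST thus stood apart above CHGB only in the BCT samples, which is a statement about ranges and not a test of the difference in order.

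**Figure D1:**
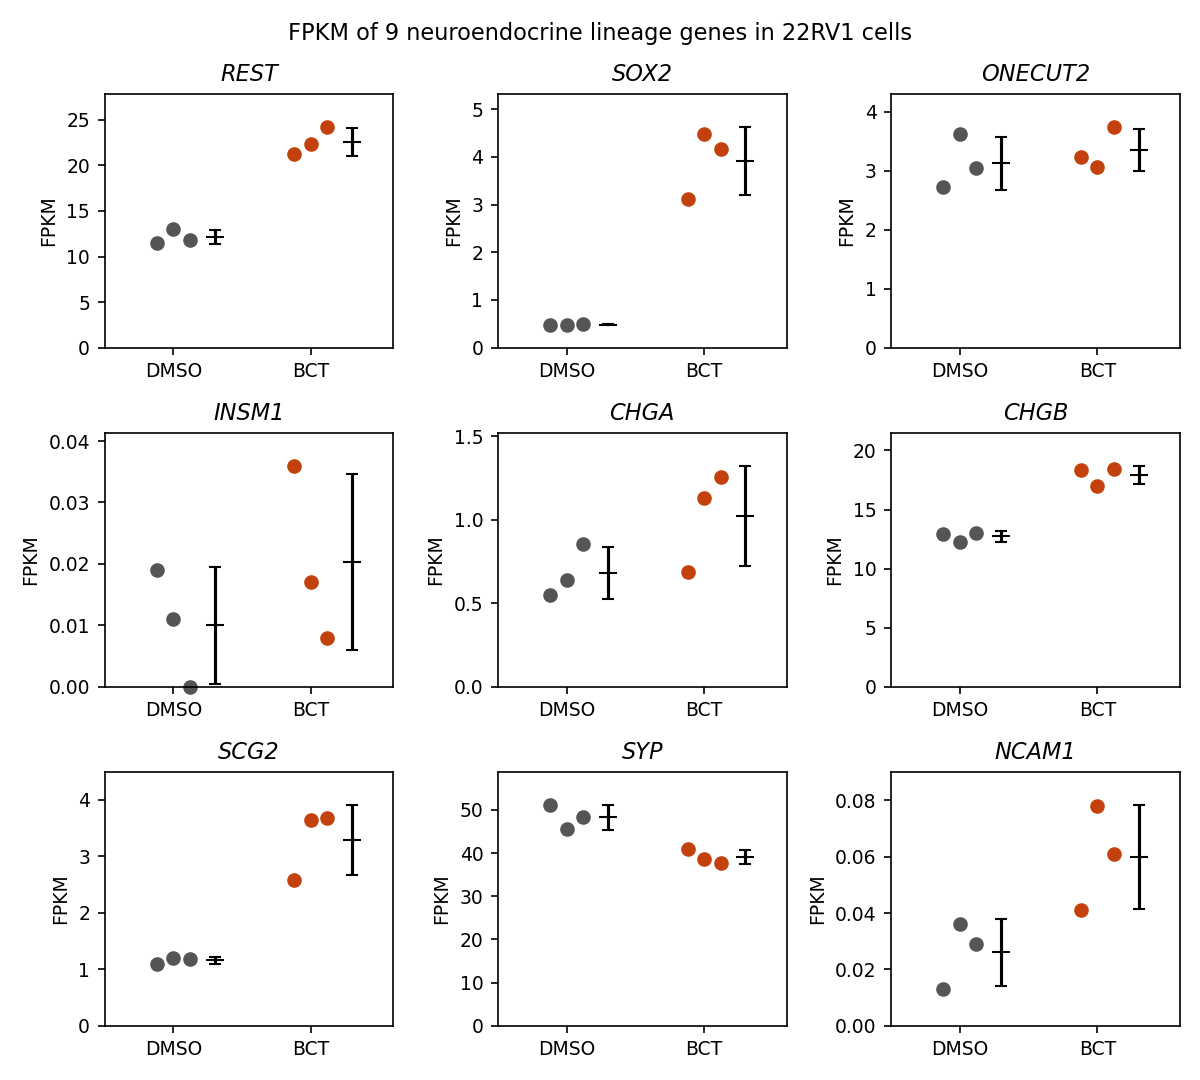
FPKM (linear axis from 0, a scale of its own in each panel) of the 9 genes in the 3 DMSO samples (grey) and the 3 BCT samples (orange), with the mean and SD of each group as a bar beside the points. The groups are separate for REST, SOX2, CHGB, SCG2, SYP and NCAM1 and overlap for ONECUT2, INSM1 and CHGA, and the INSM1 and NCAM1 axes end below 0.1 FPKM.

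REST, the repressor, was at 11.516, 13.062 and 11.856 FPKM in the DMSO samples and at 21.210, 22.373 and 24.253 FPKM in the BCT samples. Every BCT sample was above every DMSO sample. The mean went from 12.1 ± 0.812 to 22.6 ± 1.54 FPKM (SD, n = 3 each), a 1.86-fold difference. In limma the log2 fold change was 0.89 with an SE of 0.07 (95% interval 0.73 to 1.06, adjusted p = 7.1e-06), and REST was called higher. The call is close to the threshold. It ended with a pseudocount of 1 (0.84) and without BCT replicate 3 (0.84, adjusted p = 0.000106 in limma). REST spans 57774042 to 57802010 on chromosome 4 in the files (hg19), and its splice forms cannot be told apart in a value per gene.

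SOX2, a pluripotency and neural progenitor factor, changed most among the 9 genes. It was at 0.481, 0.471 and 0.488 FPKM in DMSO and at 3.120, 4.476 and 4.177 FPKM in BCT. The groups lay far apart, and the spread was much wider in the BCT samples. The mean went from 0.48 ± 0.00854 to 3.92 ± 0.712 FPKM (SD, n = 3 each), an 8.18-fold difference, with a limma log2 fold change of 2.78 (SE 0.16, 95% interval 2.41 to 3.15, adjusted p = 1.53e-06). With a pseudocount of 1 the log2 fold change was 1.72, and SOX2 was still called higher. SOX2 passed the filter on low values only through the BCT samples, so that a gene with its DMSO level had to differ in order to be tested.

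The files give SOX2 the interval from 180774468 to 181460013 of chromosome 3, whereas GENCODE places the gene from 181429713 to 181432224. The wider interval is the one the files also give to SOX2-OT, a long noncoding RNA transcribed through the SOX2 locus on the same strand. SOX2-OT was at 0.210, 0.251 and 0.356 FPKM in DMSO and at 0.272, 0.531 and 0.579 FPKM in BCT, so its groups overlapped at a level well under that of SOX2 in BCT. LOC102724604, a further gene of the same interval, was listed at 0 in all 6 samples. How the authors' counting split fragments between these genes is not given in the sources used here, so the value of SOX2 carries that uncertainty.

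ONECUT2, a homeodomain factor of the cut family, was at 2.728, 3.612 and 3.038 FPKM in DMSO and at 3.226, 3.062 and 3.744 FPKM in BCT. The groups overlapped. The limma log2 fold change was 0.10 (SE 0.12, 95% interval -0.19 to 0.38, adjusted p = 0.474), and ONECUT2 was not called. With equal FPKM sums its value was 0.84, just under the threshold. INSM1, a zinc finger factor of neuroendocrine differentiation, was near zero. Its values were 0.019, 0.011 and 0 FPKM in DMSO and 0.036, 0.017 and 0.008 FPKM in BCT, with overlapping groups. It did not pass the filter, and in the limma fit without a filter its log2 fold change was 0.13 (95% interval -0.15 to 0.41, adjusted p = 0.398).

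The granins are acidic proteins that pack the dense-core vesicle and are cut into peptides. CHGB was at 12.950, 12.208 and 13.014 FPKM in DMSO and at 18.335, 17.022 and 18.422 FPKM in BCT. Each BCT sample was above each DMSO sample, and the spread within a group was small. The mean went from 12.7 ± 0.448 to 17.9 ± 0.784 FPKM (SD, n = 3 each). Its limma log2 fold change of 0.49 (SE 0.06, 95% interval 0.36 to 0.62, adjusted p = 5.85e-05) passed the adjusted p and not the fold threshold, and CHGB was not called.

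SCG2, secretogranin II, was at 1.084, 1.202 and 1.188 FPKM in DMSO and at 2.578, 3.630 and 3.667 FPKM in BCT. BCT replicate 1 was the lowest of its group and still above every DMSO sample. The mean went from 1.16 ± 0.0645 to 3.29 ± 0.618 FPKM (SD, n = 3 each), a 2.84-fold difference. SCG2 was called higher, with a limma log2 fold change of 1.41 (SE 0.15, 95% interval 1.07 to 1.76, adjusted p = 3.63e-05). SOX2 shared this order of samples, with BCT replicate 1 the lowest of the treated samples.

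CHGA, chromogranin A, the standard serum and tissue marker of neuroendocrine tumours, was low. It was at 0.549, 0.636 and 0.855 FPKM in DMSO and at 0.685, 1.132 and 1.254 FPKM in BCT. BCT replicate 1 lay within the DMSO range. With a mean of 0.852 FPKM over all samples it did not pass the filter. In the limma fit without a filter its log2 fold change was 0.51 with a wide 95% interval of -0.08 to 1.10 (adjusted p = 0.12).

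SYP, synaptophysin, a membrane protein of small secretory vesicles, was the most abundant of the 9 genes in both groups. It was at 51.205, 45.485 and 48.232 FPKM in DMSO and at 40.820, 38.612 and 37.717 FPKM in BCT. All BCT samples were below all DMSO samples. The limma log2 fold change was -0.31 (SE 0.06, 95% interval -0.44 to -0.17, adjusted p = 0.00141), which did not reach the fold threshold. In DMSO the mean of SYP was above that of 92.1% of all genes in the files, and in BCT above 90.6%. The direction of SYP turned when all samples were forced to equal FPKM sums, where the value was 0.46. SYP-AS1, which shares its interval and whose reads the library kit does not separate by strand, was at no more than 0.058 FPKM in any sample.

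NCAM1, a cell adhesion molecule of neural and neuroendocrine cells, was near zero at 0.013, 0.036 and 0.029 FPKM in DMSO and 0.041, 0.078 and 0.061 FPKM in BCT. The groups did not overlap, yet the highest value of any sample was 0.078 FPKM. In the limma fit without a filter the log2 fold change was 0.34 (95% interval 0.04 to 0.64, adjusted p = 0.0498), under the fold threshold. NCAM1-AS1 and LOC101928847, which share its interval, reached at most 0.047 FPKM. Of the 3 markers used in pathology, only SYP was therefore above 1.254 FPKM in any sample.

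**Figure D2:**
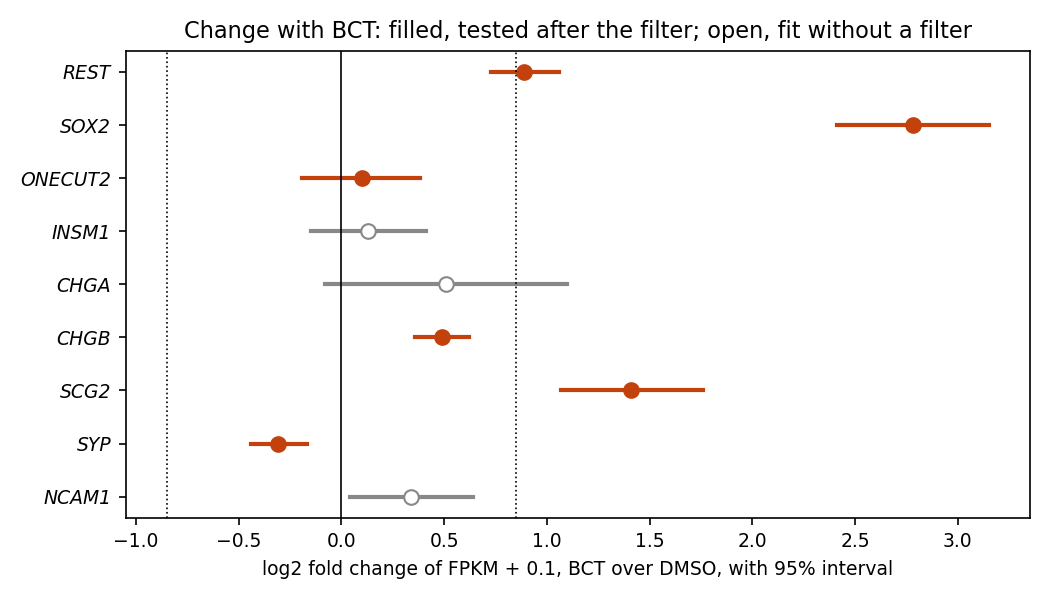
Log2 fold change of FPKM + 0.1 (BCT over DMSO) with its 95% interval from limma, filled for the 6 genes tested after the filter and open for the 3 genes fitted only without a filter. Dotted lines mark the fold threshold of 0.85 in each direction. REST (0.89), SCG2 (1.41) and SOX2 (2.78) lie past it, and the interval of REST reaches below it.

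In all, 6 of the 9 genes were tested, 1 was low and 2 were near zero. Among the 6, 3 were called higher (REST, SOX2 and SCG2) and none lower. Over all tested genes 31.6% were called, 13.9% higher and 17.8% lower. No overlap between the groups was found in 4 of the 6 in the higher direction (REST, SOX2, SCG2 and CHGB) and in 1 in the lower direction (SYP). Over all tested genes these shares were 41.0% and 44.3%, so separate groups were the usual case in these data. With 6 genes, of which SOX2 was tested only because of its level in BCT, the counts are a description. Each value is an amount of RNA per sample, in which fewer cells with a transcript and less of it per cell cannot be told apart.

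The profiles most like those of the 6 tested genes, by Pearson correlation of log2(FPKM + 0.1) over the 6 samples, were found among many near equals. For REST they were TEAD1 (0.9999) and FLJ42627 (0.9997), for SOX2 AJUBA (0.9999) and SURF6 (0.9998), and for SCG2 ZNF235 (0.9995) and MET (0.9995). For CHGB they were NDUFB4 (0.9988) and MTSS1L (0.9977), and for SYP SEC61B (0.9977) and RPS27A (0.9976). Between 2151 and 3752 genes passed a correlation of 0.95 with each of these 5. The 6 samples form 2 groups, and many genes that differ between them share much the same pattern. For ONECUT2, whose groups overlapped, only 4 genes did, led by PRR14L (0.9771) and DNAJC13 (0.9764).

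Other neurosecretory genes were called in the lower direction among those tested. A list of 31 further genes of the dense-core vesicle and of regulated exocytosis had 19 tested genes, of which 10 were called lower (52.6%, beside 17.8% of all tested genes) and none higher. Their median log2 fold change was -1.00, against -0.04 for all tested genes. The fall is not shown to be particular to this list. A set of 12 genes that every cell uses had a median of -0.97, with 7 called lower. With equal FPKM sums the 2 medians were -0.24 for the list and -0.20 for the 12 genes. That scaling multiplies each sample by 1 factor, so it could hardly set them apart. After quantile normalization they were -0.99 for the list and -0.23 for the 12 genes. The list then still had 10 genes called lower and none higher, and the 12 genes had 3 lower and 2 higher. In 4 of the 19 all BCT samples were above all DMSO samples, and none of these was called. In 13 all BCT samples were below all DMSO samples. Over all tested genes these shares were 41.0% and 44.3%. SLC18A2, 1 of the 4, averaged 0.975 FPKM in DMSO and passed the filter only through its level in BCT. The summed level of the list was 765 to 774.4 FPKM in the DMSO samples and 566.8 to 618.9 FPKM in the BCT samples. With equal FPKM sums, which move the median of all genes to 0.72, the list had 4 genes higher and 3 lower. Its median was 0.96 below that of all genes there too. That scaling shifts all genes nearly alike, so it could hardly change this gap and does not test it. Without the filter on low values 30 genes of the list were fitted, with 11 called lower and 4 called higher. Of all 21543 genes in that fit, 2771 were called lower and 2657 higher. Among the genes of the list that were under the filter, 4 were called higher, 1 lower and 6 were not called. Of the 8814 genes that only that fit includes, 10.2% were called higher and 5.83% lower.

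PTPRN2, a transmembrane protein of the dense-core vesicle, was at 12.290, 9.595 and 11.517 FPKM in DMSO and at 3.896, 2.173 and 2.459 FPKM in BCT (log2 fold change -1.97, SE 0.20). DDC, which makes dopamine and serotonin from their precursors, went from 19.842, 18.052 and 19.651 FPKM to 5.618, 5.331 and 4.856 FPKM (-1.85, SE 0.07). PCSK1N, proSAAS, an inhibitor of the prohormone convertase PCSK1, went from 73.751, 68.864 and 79.898 FPKM to 24.889, 20.303 and 20.843 FPKM (-1.75, SE 0.09). In all 3 the groups were far apart, with adjusted p of at most 2.51e-05 in limma.

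CPLX1, complexin 1, which clamps the fusion machinery, fell by 1.53 on the log2 scale. SYT4, whose RE1 core is printed above, was at 103.952, 89.511 and 88.814 FPKM in DMSO and at 37.446, 35.608 and 37.906 FPKM in BCT (-1.34, SE 0.07). ENO2, the neuron-specific enolase, fell by 1.16 on the log2 scale from a mean of 98.8 FPKM. Also called lower were RAB3A (-1.49), PAM (-1.32) and CPLX2 (-1.00), named although the naming rule did not reach them. These act in vesicle targeting, in peptide amidation and in fusion.

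VGF, a granin-like peptide precursor, was the most abundant of the list and did not share this direction. It was at 256.575, 282.549 and 266.481 FPKM in DMSO and at 336.751, 331.866 and 309.166 FPKM in BCT, without overlap, and its log2 fold change of 0.28 (SE 0.06, adjusted p = 0.00181 in limma) was not called. Of CHGB, SCG2, SCG3 and VGF, only SCG2 was called. CHGB and VGF lay higher in every BCT sample without being called, and SCG3 lay lower in every one (-0.40, not called).

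Among 29 further transcription factors and regulators of neuroendocrine fate, 10 were tested, 10 were under 0.1 FPKM and 9 lay from there to under 1 FPKM. Over the 10 the median log2 fold change was -0.20. Of these 1 was called higher, 1 lower and 8 were not called, beside 31.6% called among all tested genes. HES1, a Notch-induced repressor of neuroendocrine fate, was called higher, from 29.880, 26.403 and 30.662 FPKM to 49.736, 53.757 and 53.892 FPKM (log2 fold change 0.86, SE 0.07). HES6, which opposes HES1, was called lower, from 9.241, 8.246 and 9.783 FPKM to 4.520, 4.966 and 4.051 FPKM (-1.00, SE 0.09). A link between the changes of HES1 and HES6 was not tested. HES1 lay just past the threshold, and its call ended with a pseudocount of 1 and without DMSO replicate 2, BCT replicate 2 or BCT replicate 3, where 1 gene, in the lower direction, was left in this list at each of these settings. Without BCT replicate 1 the list had 4 called genes, 1 higher and 3 lower.

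The most abundant gene of that list was PEG10, a retrotransposon-derived gene, at a mean of 161 ± 11.3 FPKM in DMSO and 91.2 ± 9.31 FPKM in BCT (SD, n = 3 each). Its log2 fold change of -0.82 was not called. NEUROD1, a proneural factor, was near zero, and no sample had more than 0.016 FPKM of it. SRRM4, a splicing factor that turns REST transcripts towards a truncated form, was at 18.194, 18.973 and 19.074 FPKM in DMSO and at 13.206, 9.295 and 11.311 FPKM in BCT (-0.74, not called). The groups of SRRM4 were apart. NEUROD1 and SRRM4 were named for their roles after their values were seen.

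Of 26 corepressors and regulators of REST, 25 were tested, 3 were called higher and 3 lower, with a median log2 fold change of -0.15. The share called was 24.0%, beside 31.6% of all tested genes. Higher were ZMYM2 (1.12), RCOR3 (0.87) and PHF21A (0.86), which belong to or associate with the KDM1A and CoREST complex. RCOR3 and PHF21A lay just past the threshold, and 1 gene was called higher with a pseudocount of 1, without BCT replicate 2 or without BCT replicate 3. Lower were CTDSPL (-1.67), a small phosphatase that acts with REST, HMG20B (-1.48), a subunit of the same complex, and HDAC1 (-0.93), a deacetylase of that complex.

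HMG20B was at 253.534, 247.745 and 265.648 FPKM in DMSO and at 101.392, 93.446 and 81.346 FPKM in BCT. HDAC1 was at 219.830, 214.057 and 208.818 FPKM in DMSO and at 118.280, 110.641 and 108.168 FPKM in BCT. Both were among the most abundant of the list, and the samples of each group lay close together. CTBP1 (-0.77), SMARCE1 (0.22) and CTDSP1 (-0.11), the remaining genes of at least 50 FPKM, were not called. Across the list of REST partners calls went in each direction, as over all tested genes, while REST itself was called higher.

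Among 20 neuronal genes known as REST targets, 11 were tested, 2 were called higher and 3 lower, beside 31.6% called among all tested genes. The median of the 11 was -0.60. It was 0.17 with equal FPKM sums (4 higher, 2 lower) and -0.29 after quantile normalization (3 higher, 2 lower). GRIN1 was at 13.874, 14.770 and 15.249 FPKM in DMSO and at 4.213, 3.063 and 2.960 FPKM in BCT (log2 fold change -2.09, SE 0.13). CHRM4, a muscarinic receptor, fell by 1.71 and TUBB3, a neuronal tubulin, by 0.93 on the log2 scale. CHRM4 averaged under 1 FPKM in BCT and passed the filter through its level in DMSO. MAPK8IP1, a kinase scaffold, rose from 26.270, 23.882 and 25.976 FPKM to 56.230, 60.122 and 56.159 FPKM (1.18, SE 0.06), and CELSR3, a cadherin of axon guidance, rose by 1.09. BEX1, the most abundant, was at -0.60 and was not called.

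The genes with an RE1 core near the start can be set beside this. Of the 64, 28 were tested, 2 were called higher (7.14%), 6 lower (21.4%) and 20 were not called, with a median log2 fold change of -0.16. ACSL6, among the 6 and named after its values were seen, passed the filter only through its level in DMSO. These shares stand beside 13.9% and 17.8% over all tested genes. CHGB and SYP, whose cores lie 203 and 85 bases after the start, had values of opposite sign (0.49 and -0.31), except with equal FPKM sums, where both were positive (1.25 and 0.46). SYN1, with a core 224 bases before the start, reached 0.85, just under the threshold, while SYT4 and GRIN1 were called lower. Genes that carry the same letters thus differed from each other in direction.

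In the promoter sequences of RefSeq (GRCh38.p14, 250 bases before to 50 after each start), 5 of the 9 genes had an entry, with 6 promoters in all. The cAMP response element TGACGTCA lay 54 bases before the start of CHGA, and it occurred in 1.85% of the 35116 promoters of the table. GGACAG, 1 of the 2 parts of the RE1 core, lay in promoters of REST (170 bases before the start) and ONECUT2 (11 bases after it), and occurred in 20.5% of all promoters. CAGCACC (7.75% of all) and TATAAA (11.5%) were in none of the 6.

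The libraries carried the labelled cell type. All 12 luminal prostate genes looked at were tested, and none was near zero. KLK3 (prostate-specific antigen, -2.95), KLK2 (-1.61) and TMPRSS2 (-1.59), which the androgen receptor drives, were called lower, KRT18 (1.72) and KRT8 (1.17) higher, and the other 7 were not called, among them HOXB13 (-0.45), FOXA1 (-0.08), KRT19 (0.12), EPCAM (-0.29) and CDH1 (0.22). The median of the 12 was -0.19, and 41.7% of them were called, beside 31.6% of all tested genes. The summed level of the list was 1200.6 to 1213.3 FPKM in DMSO and 2198.8 to 2355.6 FPKM in BCT. The higher sum in BCT came from KRT18, with means of 336.8 and 1109.3 FPKM, and KRT8, with means of 269.8 and 609.9 FPKM. Of 10 markers of basal, stromal, blood and endothelial cells, 6 were under 0.1 FPKM, among them PTPRC and PECAM1. The 3 that were tested, NGFR (2.83), COL1A1 (1.95) and ACTA2 (1.83), were called higher, beside 13.9% of all tested genes. NGFR passed the filter only through its level in BCT, and the markers not tested were too low for the filter. The summed level of the 10 went from between 5.563 and 6.552 FPKM to between 20.36 and 24.31 FPKM. Their part in the changes of the neuroendocrine lineage genes was not tested.

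Series-wide, FPKM files hold no counts, and the depth of a sample could be estimated only as a ratio. It was the inverse of the most common ratio between a gene's value in that sample and in DMSO replicate 1. Only genes from 0.02 to 0.15 FPKM in both samples were used. Relative to DMSO replicate 1 the depth was 0.877 to 1 in DMSO and 1.05 to 1.13 in BCT. The FPKM of a sample summed to between 1169649 and 1572321 in DMSO and between 757534 and 799838 in BCT, of which the small RNA gene MIR6087 made up 43.5% to 55.3% and 31.7% to 32.5%. Samples correlated at 0.967 to 0.972 within DMSO, at 0.959 to 0.966 within BCT and at 0.851 to 0.896 between the groups. Of 12 genes that every cell uses, none was at 0 in any sample, 7 were called lower and 1 higher in the values as deposited, against 1 lower and 4 higher with equal FPKM sums and 3 lower and 2 higher after quantile normalization.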

How the data were processed

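RNA-seq of 3 DMSO and 3 BCT samples of 22RV1 cells was used. According to the study's methods the authors aligned trimmed reads to hg19 with HISAT2 and assembled them with StringTie, and the submitters' processing notes also list CASAVA, Trimmomatic 0.38 and HTSeq. The gene annotation is not given in the sources used here. The authors deposited FPKM per gene. These values were used without rescaling, since MIR6087 is a large share of the sums. Equal sums without MIR6087 were not tried. Log2(FPKM + 0.1) was tested with limma 3.58.1 (R 4.3.3, mean-variance trend) over genes averaging 1 FPKM or more, without a replicate block. The steps were tested on simulated data. Groups came from the sample titles.

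The 9 genes, the hand-written lists and the tests were chosen with earlier results of these data known. From each list were named up to 4 called genes per direction with the largest change and no overlap, and those averaging 50 FPKM or more. Genes that share an interval with any of the 9, and the 2 genes with the most similar profile, were also named. Some genes of the lists are not reported here by name. The search of GRCh37 for RE1 cores, with starts from GENCODE release 44 lifted to that build, was added after the values were known. File intervals are given with 1 added to the start. FPKM holds no depth, so no counting interval could be given. Alternatives covered the pseudocount, the filter, 3 scalings, the FDR, the variance model, the replicate block and each sample left out.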

Additional observations from a re-analysis of the deposited data

How the results depend on the processing

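For the 6 tested genes of the set, 89 of 93 values under the alternatives kept their direction and their side of the threshold. The exceptions were REST, whose call ended at 0.84 with a pseudocount of 1 and at 0.84 without BCT replicate 3, and equal FPKM sums, which brought CHGB to 1.25 and past the threshold and turned SYP to 0.46. ONECUT2 came to 0.84 there. Under equal sums 6282 of all genes were called, 5614 higher and 668 lower, in place of 1764 and 2263, the share of lower calls went from 56.2% to 10.6%, and 12 REST partner genes were called, 11 of them higher. That scaling divides by a sum of which MIR6087 is a large share. A filter at 5 FPKM left 1 called gene of the set, since SOX2 and SCG2 were no longer tested, and 1150 genes called higher among all genes, against 2657 without a filter. Without a filter the regulators had 6 called genes and the REST-bound neuronal genes 8. With a pseudocount of 1 the regulators had 1, and with a sample left out 1 to 4.

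The same replicate numbers occur in both groups, but no label says that they mark a shared culture or day. Deviations of same-numbered samples correlated at 0.0328 to 0.116, so the numbers were not taken as pairs. With the replicate block 4033 of all genes and 3 genes of the set were called, and no call of the set changed. FPKM holds no counts, so the error of the near-zero values of INSM1 and NCAM1 is not known.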

Other observations

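Genes of the lists too low for the filter moved in a fit without it, and are named here after their values were seen. SYT11, a synaptotagmin, was at 0.049, 0.077 and 0.050 FPKM in DMSO and at 0.718, 2.039 and 1.788 FPKM in BCT, with a limma log2 fold change of 3.24 (adjusted p = 0.000176). SOX3, the closest relative of SOX2, was at 0, 0 and 0.015 FPKM in DMSO and at 0.175, 0.223 and 0.244 FPKM in BCT (1.58, adjusted p = 4.26e-05 in limma). PTPRN, the paralog of PTPRN2, was at 1.56 and was called higher, while PTPRN2 itself was called lower. SCG5, a chaperone of the convertase PCSK2, was at 1.32 and was called higher.

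In total 4 neurosecretory genes, 3 regulators, 2 REST-bound neuronal genes and 1 REST partner were called higher among these low genes, and 1, 1, 1 and 0 lower. In the same order of lists, 6, 13, 6 and 0 were not called. Among all 8814 genes that only the fit without a filter includes, 10.2% were called higher and 5.83% lower. DLL3, a Notch ligand of neuroendocrine tumours, was among the lower ones, at 0.607, 0.502 and 0.928 FPKM in DMSO and at 0.187, 0.131 and 0.115 FPKM in BCT (-1.65, adjusted p = 0.000589 in limma). The groups of DLL3 were apart. PRICKLE1, a REST-interacting protein, was the REST partner called higher (1.58), at no more than 0.619 FPKM. All of these stayed at or below 2.039 FPKM in every sample, and how the filter on low values bears on the direction of these lists was not tested.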
